A study of Mus musculus with 2 samples.

Results

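Heme breakdown and intracellular heme trafficking were followed through 10 genes, chosen by name as the heme oxygenases Hmox1 and Hmox2, the biliverdin reductases Blvra and Blvrb, the heme-binding proteins Hebp1, Hebp2 and Pgrmc1, and the membrane proteins Slc48a1, Tmem14c and Tspo. All 10 were among the 22838 genes of the deposited table. RNA came from NIH3T3 cells, an established mouse fibroblast line, in 1 library of untreated cells and 1 library of cells given 100 µM ALA for 16 h. The labels write only ALA, which in heme research is the usual short form of δ-aminolevulinic acid, the molecule from which cells build heme. Neither label says how many cultures were pooled, and no member has a replicate in either group.

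Heme that a cell no longer needs is opened by a heme oxygenase, which releases iron, carbon monoxide and biliverdin and takes its electrons from NADPH-cytochrome P450 reductase. Biliverdin reductase then converts biliverdin to bilirubin, an antioxidant. Free heme is toxic and crosses membranes poorly, so binding proteins and transporters handle it between the mitochondrion, where its synthesis ends, and the rest of the cell. Hmox1 is the inducible gene of the set. Its transcription is held down by the heme-sensing repressor BACH1 and driven by NRF2, whereas Hmox2 is known as the constitutive form.

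Values are FPKM, read counts divided by transcript length and by sequencing depth, so levels can be compared between genes on this per-length scale. A fold is the plain ratio of FPKM values. A log2 ratio was taken after adding 1 to both FPKM values, ALA over untreated, and for low genes it is smaller than the plain ratio. The steps that separate low values gave an approximate depth of 25100000 reads for the untreated library and 33600000 for the ALA library. Counting intervals are approximate 95% intervals from that depth and cover counting error only. With 1 library per group no test was possible, and variation between cultures was not measured. Genes whose FPKM averaged 1 or more over both libraries are called measured. They numbered 10929, their median log2 ratio was -0.02 and the middle 95% of them lay between -0.93 and 0.83. All 10 fibroblast markers were measured, among them Fn1 at 2367 and 1765 FPKM and Col1a1 at 1047 and 980 FPKM. With ALA 9 of the 10 were lower, 3 of them at 1.5-fold, and their median log2 ratio was -0.26. Those 3 were Dcn, from 194 to 100 FPKM, Pdgfra, from 57.6 to 36.6 FPKM, and Thy1, from 60.2 to 38.8 FPKM. The part of this shift in the values of the members was not tested.

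Hmox1 was the member with the largest difference. It was 2.09-fold higher in the ALA library, the protoporphyrinogen transporter gene Tmem14c was 1.53-fold higher, and Hebp1, Slc48a1 and Blvra were 1.45-fold, 1.38-fold and 1.37-fold higher. Hmox2 and Blvrb differed by less than 1.1-fold. Tspo, Hebp2 and Pgrmc1 were 1.23-fold, 1.25-fold and 1.25-fold lower. In all, 6 of 10 members were higher and 4 lower, where 47.8% of measured genes were higher and 52.2% lower by any amount. At least 2-fold higher was 1 member, against 1.49% of measured genes, and at least 1.5-fold higher were 2 members, against 5.9%. No member was at least 1.5-fold lower, where 7.16% of measured genes were, and none at least 2-fold lower, where 2.01% were. The median log2 ratio of the members was 0.28, and it was 0.13 without Hmox1. The libraries hold RNA of whole cultures, so fewer cells that express a gene and less RNA per cell cannot be told apart.

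**Figure D1:**
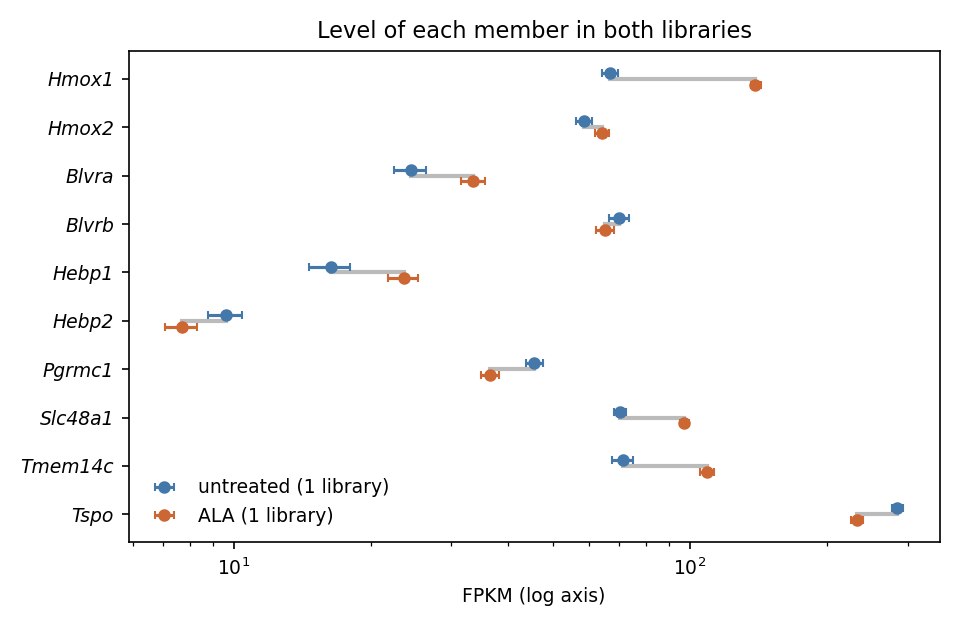
FPKM (log axis) of each of the 10 members in the untreated library (blue) and the ALA library (orange). Points are single libraries and bars are approximate 95% counting intervals. Hmox1 stands at 66.8 and 139 FPKM, and Tspo is the highest member in both libraries.

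The heme oxygenases catalyse the step that opens the heme ring. Hmox1 lies on chromosome 8 (plus strand, 75093621 to 75100589 in the GENCODE annotation of GRCm38), with 5 exons in its 1569-bp transcript. It stood at 66.8 FPKM in untreated cells and at 139 FPKM with ALA, from about 2300 and 6400 reads. The ALA value was the higher one, and the counting intervals of the levels, 64 to 69.5 and 136 to 143 FPKM, did not overlap. The log2 ratio was 1.05, with a counting interval of 0.98 to 1.12. Among all 22838 genes the level of Hmox1 moved from rank 1214 to rank 513. Its log2 ratio ranked 142 from the top of the 10929 measured genes. Of 1306 measured genes whose mean FPKM was within a factor of 2 of its own, 11 (0.842%) had a log2 ratio further from 0. No 41-base stretch of Hmox1 occurs in an annotated transcript of another gene.

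Hmox2, on chromosome 16 (plus strand, 4726361 to 4766742), stood at 58.7 FPKM in untreated cells and at 64.1 FPKM with ALA. The levels lay close together, with counting intervals of 56.2 to 61.1 and 61.9 to 66.3 FPKM, and the log2 ratio was 0.13. Among 2197 measured genes of similar mean FPKM, 60.3% lay further from 0. Cdip1, on the opposite strand, covers 40.2% of the Hmox2 exon bases, and the sources used here give no strand setting. Cdip1 had 11.9 and 13.3 FPKM. Its log2 ratio was 0.15, and the sum of both genes gave 0.13, as Hmox2 did alone. The summed heme oxygenase level went from 125 to 204 FPKM, of which Hmox1 made 53.2% untreated and 68.5% with ALA. Within a library this share does not depend on how the libraries were scaled. The ratio of Hmox1 to Hmox2 was 1.14 untreated and 2.18 with ALA.

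**Figure D2:**
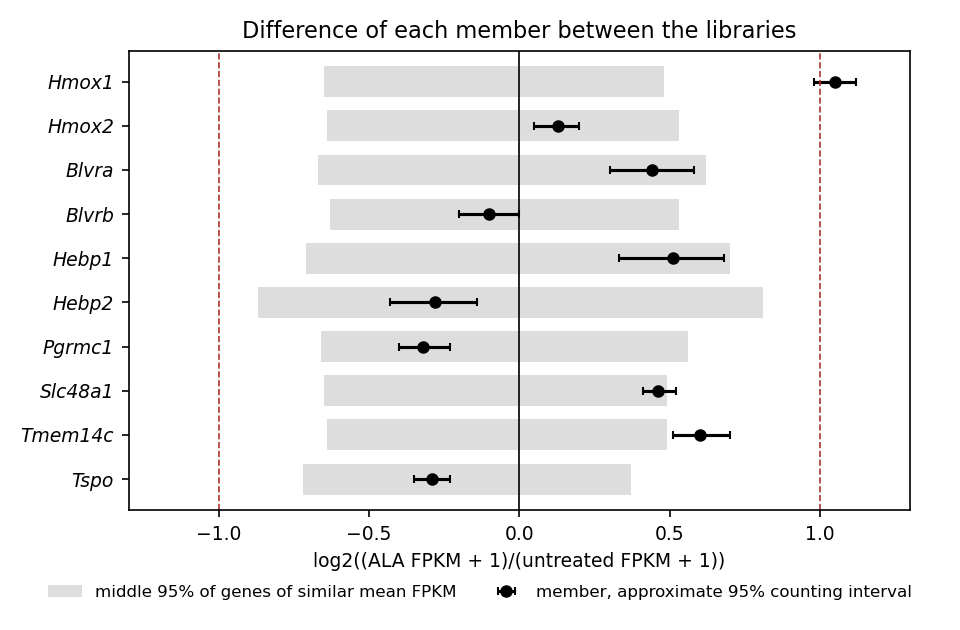
Log2 ratio of ALA to untreated FPKM, each with 1 added, for each member (black points, bars are approximate 95% counting intervals). Grey bars span the middle 95% of measured genes whose mean FPKM is within a factor of 2 of the member's, and dashed lines mark 2-fold. Hmox1 and Tmem14c, at 1.05 and 0.60, lie beyond their grey bars.

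Of the biliverdin reductases, only Blvra differed beyond counting error. Blvra, which encodes the main adult reductase of biliverdin IXα, is on chromosome 2 (plus strand, 127070665 to 127097084). It stood at 24.5 FPKM in untreated cells and at 33.5 FPKM with ALA, from about 590 and 1100 reads, with a log2 ratio of 0.44 and a counting interval of 0.30 to 0.58. The ALA level was the higher one, yet 13.9% of 3841 genes of similar mean FPKM lay further from 0. Blvrb, also known as flavin reductase, lies on chromosome 7 (plus strand, 27447978 to 27466144). It stood at 69.9 FPKM in untreated cells and at 65.1 FPKM with ALA, and the log2 ratio was -0.10. Its level intervals of 66.3 to 73.5 and 62.1 to 68.1 FPKM overlapped, so at this depth the Blvrb levels were not separable. Blvrb was the more abundant of the pair in both libraries, and the share of Blvra in their sum was 25.9% untreated and 34.0% with ALA. The sum itself was 94.3 and 98.6 FPKM.

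Promoter windows of RefSeq on GRCm38.p6, 250 bases before to 50 after a transcript start, were held for 7 of the 10 members, in 10 windows. Hmox1, Slc48a1 and Tspo were not among them. Each was searched on both strands for TGACNNNGC, the core of the antioxidant response element bound by NRF2 and small MAF proteins, for TGANTCA, the AP-1 form, and for CACGTG, the E-box. Of 32851 windows of the table, 12.4%, 7.81% and 7.15% held a match. Among the member windows TGACNNNGC occurred in those of Blvra and Pgrmc1, CACGTG in that of Hebp1, and TGANTCA in none. No match of one motif overlapped one of another. The window of Blvra, chr2:127070407-127070706 on the plus strand, is printed because Blvra was higher with ALA and holds a match, TGACCGAGC read on the other strand. In each sequence the capitals mark the match, and the transcript starts 50 bases before the end.
Blvra: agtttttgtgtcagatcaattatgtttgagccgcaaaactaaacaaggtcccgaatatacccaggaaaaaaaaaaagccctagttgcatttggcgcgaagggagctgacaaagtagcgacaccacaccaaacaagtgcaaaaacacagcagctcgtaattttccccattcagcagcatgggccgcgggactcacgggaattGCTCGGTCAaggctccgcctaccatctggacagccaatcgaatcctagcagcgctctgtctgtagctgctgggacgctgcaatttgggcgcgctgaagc
The match of Blvra begins 49 bases before the start.

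Of the heme and porphyrin binding proteins, 1 was higher and 2 were lower. Hebp1, which binds tetrapyrroles and whose N-terminal peptide is a chemoattractant, is on chromosome 6 (minus strand, 135137522 to 135198022). It stood at 16.3 FPKM in untreated cells and at 23.6 FPKM with ALA, from about 350 and 680 reads. The ALA level was the higher one, the log2 ratio was 0.51 and its counting interval was 0.33 to 0.68. Among 4421 genes of similar mean FPKM, 12% lay further from 0. Hebp2, the related SOUL protein, is on chromosome 10 (minus strand, 18539498 to 18546076). It stood at 9.59 FPKM in untreated cells and at 7.69 FPKM with ALA, so that the log2 ratio was -0.28 and its counting interval -0.43 to -0.14. Of 4303 genes of similar mean FPKM, 43.2% lay further from 0. Hebp1 was the more abundant of the pair in both libraries, at 62.9% of their sum untreated and 75.4% with ALA. The windows of Hebp1, chr6:135168166-135168465 on the minus strand, and of Pgrmc1, chrX:36597943-36598242 on the plus strand, are set side by side because these binding proteins differed in direction and each holds a match.
Hebp1: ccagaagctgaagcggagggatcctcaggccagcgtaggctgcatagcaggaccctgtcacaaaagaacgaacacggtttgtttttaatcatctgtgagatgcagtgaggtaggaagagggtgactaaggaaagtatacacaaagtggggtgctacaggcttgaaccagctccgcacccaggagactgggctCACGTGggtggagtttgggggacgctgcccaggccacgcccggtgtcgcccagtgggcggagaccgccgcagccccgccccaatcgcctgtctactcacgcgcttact
Pgrmc1: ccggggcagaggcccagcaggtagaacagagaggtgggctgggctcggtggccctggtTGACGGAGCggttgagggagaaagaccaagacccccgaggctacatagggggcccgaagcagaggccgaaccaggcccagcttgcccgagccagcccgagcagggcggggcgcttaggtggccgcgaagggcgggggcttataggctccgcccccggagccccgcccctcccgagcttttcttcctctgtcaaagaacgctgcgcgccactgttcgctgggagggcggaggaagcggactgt
The E-box of Hebp1 begins 58 bases before the start, and TGACGGAGC of Pgrmc1 begins 192 bases before the start of its own window. The Hebp1 window lies inside the gene span given above, so its transcript start is not the outermost start of the gene. A TGACNNNGC match was thus held by a member that was higher with ALA and by a member that was lower.

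Pgrmc1 encodes a heme-binding membrane protein that associates with ferrochelatase, the last enzyme of heme synthesis, and with cytochromes P450. It is on the X chromosome (plus strand, 36598206 to 36606079) and stood at 45.6 FPKM in untreated cells and at 36.5 FPKM with ALA. The ALA level was the lower one, with a log2 ratio of -0.32 and a counting interval of -0.40 to -0.23. Of 3073 genes of similar mean FPKM, 25.1% lay further from 0. Its close relative Pgrmc2, a heme chaperone, had 39.8 and 35.2 FPKM, and the log2 ratio was -0.17. Pgrmc1 made 53.4% of their sum untreated and 50.9% with ALA, so its share moved by less than that of Hmox1, Blvra or Hebp1 within their pairs.

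**Figure D3:**
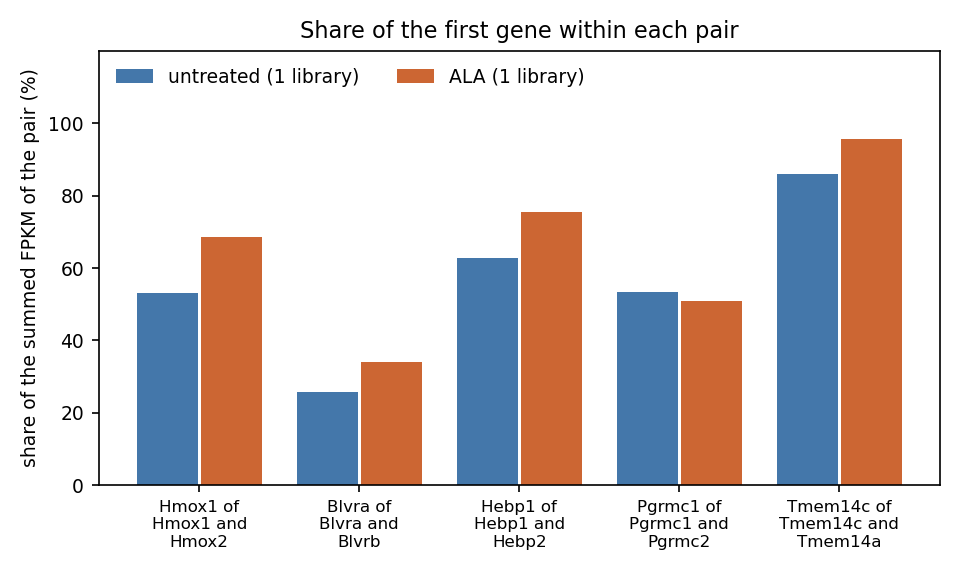
Share of the first gene in the summed FPKM of 5 pairs, in the untreated library (blue) and the ALA library (orange), as bars from 0 with 1 library each and no error. The share of Hmox1 goes from 53.2% to 68.5%, and that of Pgrmc1 from 53.4% to 50.9%.

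Of the members listed under membrane movement of heme and porphyrins, Slc48a1 and Tmem14c were higher with ALA and Tspo was lower. Whether the Tspo protein moves either was not tested. Slc48a1, also called HRG1, carries heme out of endosomes and lysosomes, in macrophages after they engulf red cells. It lies on chromosome 15 (plus strand, 97778520 to 97792692). It stood at 70.2 FPKM in untreated cells and at 97.1 FPKM with ALA, from about 4100 and 7600 reads. The level intervals of 68.1 to 72.4 and 94.9 to 99.3 FPKM were apart, with the ALA library higher and a log2 ratio of 0.46. Of 1637 genes of similar mean FPKM, 8.37% lay further from 0.

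Tmem14c, an inner mitochondrial membrane protein needed for the import of protoporphyrinogen IX in erythroid cells, is on chromosome 13 (plus strand, 41016292 to 41022586). It stood at 71.3 FPKM in untreated cells and at 109 FPKM with ALA, from about 1300 and 2600 reads. The ALA level was the higher one, the log2 ratio was 0.60 and its counting interval was 0.51 to 0.70. Of 1514 genes of similar mean FPKM, 4.36% lay further from 0. The 1.5-fold call of Tmem14c depended on the added constant, since the log2 ratio was 0.58 with 5 FPKM added in place of 1. Its relative Tmem14a went the other way, from 11.6 to 4.87 FPKM, so that the log2 ratio was -1.11 and its counting interval -1.34 to -0.87. Tmem14c made 86.0% of the sum of the pair untreated and 95.7% with ALA. The promoter window of Tmem14c, chr13:41016000-41016299 on the plus strand, is printed because Tmem14c has the highest log2 ratio of the members after Hmox1. It holds none of the searched motifs and so has no capitals.
Tmem14c: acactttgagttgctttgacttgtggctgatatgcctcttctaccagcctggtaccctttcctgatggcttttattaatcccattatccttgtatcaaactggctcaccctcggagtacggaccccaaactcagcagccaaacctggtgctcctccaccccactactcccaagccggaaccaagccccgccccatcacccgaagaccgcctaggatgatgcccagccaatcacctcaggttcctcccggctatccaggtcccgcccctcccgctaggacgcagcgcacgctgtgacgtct
No match says only that these letters are not in this window.

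Tspo, the translocator protein of the outer mitochondrial membrane, binds protoporphyrin IX and cholesterol. It is on chromosome 15 (plus strand, 83563592 to 83574203) and was the most abundant member in both libraries. It stood at 285 FPKM in untreated cells and at 232 FPKM with ALA, with level intervals of 277 to 293 and 226 to 239 FPKM. The ALA level was the lower one and the log2 ratio was -0.29. Of 425 genes of similar mean FPKM, 20.9% lay further from 0. In FPKM the difference of Tspo was -52.5, set beside 72.7 for Hmox1 and 37.6 for Tmem14c. Tspo2, the erythroid relative, was listed at 0 in both libraries.

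The members spanned a 29.7-fold range of levels untreated and a 30.2-fold range with ALA. Untreated, Tspo came first, followed by Tmem14c, Slc48a1, Blvrb and Hmox1 between 71.3 and 66.8 FPKM. Each neighbouring pair within that group of 4 had overlapping counting intervals. Hmox2, Pgrmc1, Blvra, Hebp1 and Hebp2 followed, each apart from its neighbour. With ALA the order was Tspo, Hmox1, Tmem14c, Slc48a1, Blvrb, Hmox2, Pgrmc1, Blvra, Hebp1 and Hebp2. There Blvrb and Hmox2, at 65.1 and 64.1 FPKM, had overlapping intervals, as did Pgrmc1 and Blvra at 36.5 and 33.5 FPKM. The ratio of Tspo to Hmox1 was 4.27 and 1.67. The summed level of the members was 718 FPKM untreated and 808 FPKM with ALA. The 6 higher members summed to 308 and 467 FPKM and the 4 lower ones to 410 and 342 FPKM. Without Hmox1 the sums of the remaining members were 651 and 669 FPKM.

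**Figure D4:**
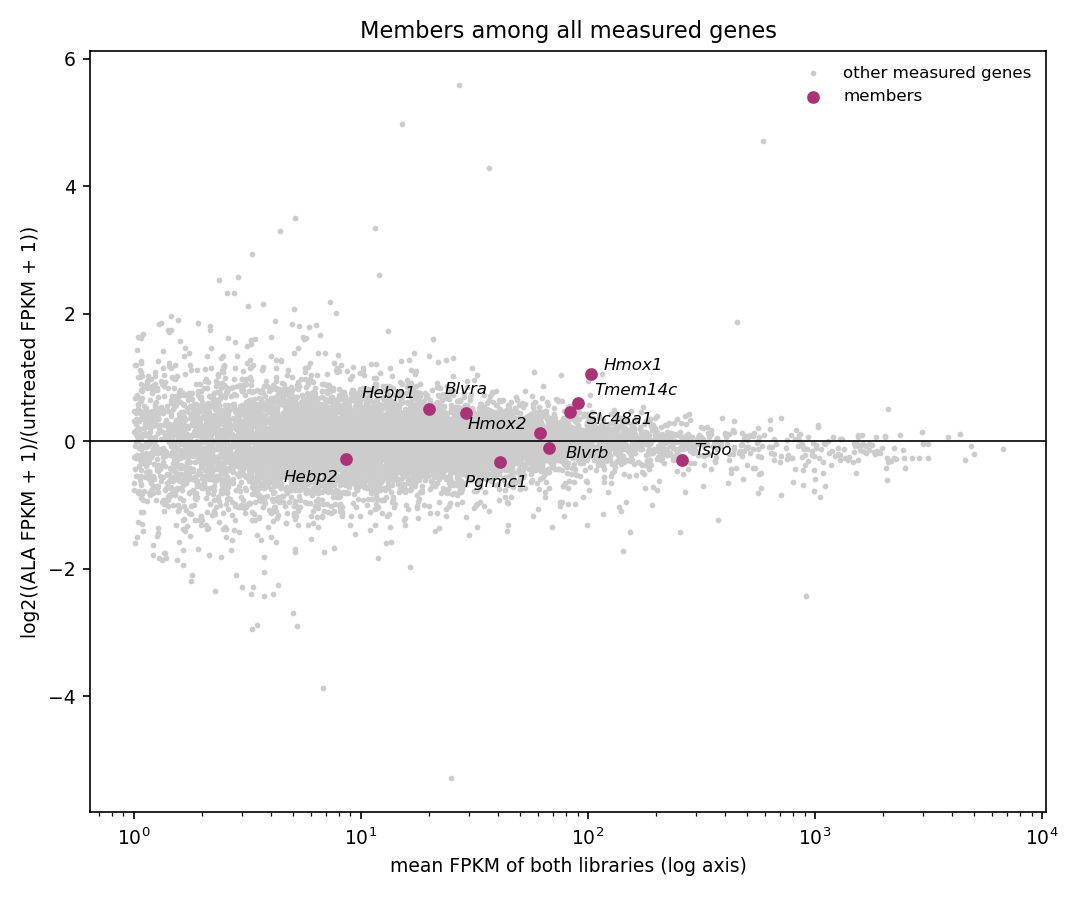
Log2 ratio against mean FPKM of both libraries (log axis) for the 10929 measured genes (grey), with the 10 members in purple. Hmox1, at 1.05, lies at the upper edge of the genes of its level, and Tspo, Pgrmc1, Hebp2 and Blvrb lie below 0.

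The genes whose pair of levels was closest to that of Hmox1 were Gm12669, with 68.0 and 131 FPKM, Atp6v0c-ps2, with 74.4 and 156 FPKM, and Hnrnpul1, with 76.8 and 128 FPKM. Closest to Tmem14c were Psmc5 with 72.2 and 105 FPKM, 2310036O22Rik with 69.9 and 105 FPKM, and Pa2g4 with 76.8 and 106 FPKM. Likeness was the distance on the log2(FPKM + 1) scale over these 2 libraries. Atp6v0c, the gene that Atp6v0c-ps2 is named after, went the other way, from 220 to 66 FPKM, with a log2 ratio of -1.72. Whether reads were divided between Atp6v0c and Atp6v0c-ps2 by shared sequence was not tested, so the level of Atp6v0c-ps2 is uncertain.

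Around the members, the heme synthesis list had 6 of 8 measured genes higher and a median log2 ratio of 0.18. Alas1, the gene of its rate-limiting enzyme, had 10.2 and 4.52 FPKM, so the ratio of Hmox1 to Alas1 was 6.54 untreated and 30.8 with ALA. Later enzymes of the same list had log2 ratios of 0.86 for Ppox and 0.70 for Uros. On the other strand, B4galt3 overlaps 17.5% of the exonic sequence of Ppox. Relatives of the members had 1 of 4 measured genes higher and a median of -0.18. Besides Tmem14a and Pgrmc2 these were the neuferricin gene Cyb5d2 at 0.65 and the secreted neudesin gene Nenf at -0.19. The list labelled electron donors of heme oxygenase holds Por with cytochrome b5 and cytochrome b5 reductase genes. It had 3 of 5 higher, a median of 0.01 and none at 1.5-fold. Only Por encodes the reductase described above as supplying heme oxygenase, and Por had 27.7 and 29.6 FPKM. In that list Cyb5a was at 0.36, Cyb5r3 at -0.15 and Cyb5r1 at -0.05. Other heme and porphyrin transport genes had 6 of 12 higher and a median of 0.13. The mitochondrial carriers Slc25a40 and Slc25a38 were at 0.84 and 0.61, Slc25a37 was at -0.56 and Abcb8 at -0.90. Flvcr1 and Flvcr2 were not analysed here.

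The products of heme breakdown are iron and bilirubin, and the genes that handle them had 6 of 9 measured genes higher, with a median of 0.07. The iron exporter Slc40a1 moved from 3.13 to 6.31 FPKM, and the log2 ratio was 0.82. The iron importer Slc11a2 was at 0.41, the ferritin receptor Ncoa4 at -0.55 and the iron chaperone Pcbp2 at -0.18. Ncoa4 and Pcbp2 share 18.2% and 33.3% of their 41-base stretches with other genes. The bilirubin conjugation gene Ugt1a1 and the bilirubin transporters Abcc2 and Slco1b2 did not reach a mean of 1 FPKM. Abcc1, another transporter of the list, was measured at 56.3 and 62.9 FPKM, with a log2 ratio of 0.16.

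The regulators of Hmox1 had 3 of 9 measured genes higher and a median of -0.18. Nfe2l2, which encodes NRF2, stood at 107 FPKM in untreated cells and at 92.1 FPKM with ALA, and the log2 ratio was -0.22. Bach1 had 8.10 and 7.03 FPKM, and the log2 ratio was -0.18. The small MAF genes, whose proteins pair with either factor, differed in direction, with Maff at -1.58, Mafg at -0.22 and Mafk at 0.44. Maff was the only regulator at 2-fold, from 20.9 to 6.32 FPKM. Other target genes of NRF2 and BACH1 had 11 of 15 higher, 1 of them at 1.5-fold, and a median of 0.22. Gclm, the modifier subunit of glutamate-cysteine ligase, moved from 55.7 to 88.3 FPKM, and the log2 ratio was 0.66. Txnrd1, Srxn1 and Gsta4 were at 0.56, 0.48 and 0.35. No measured gene of that list reached the log2 ratio of Hmox1.

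**Figure D5:**
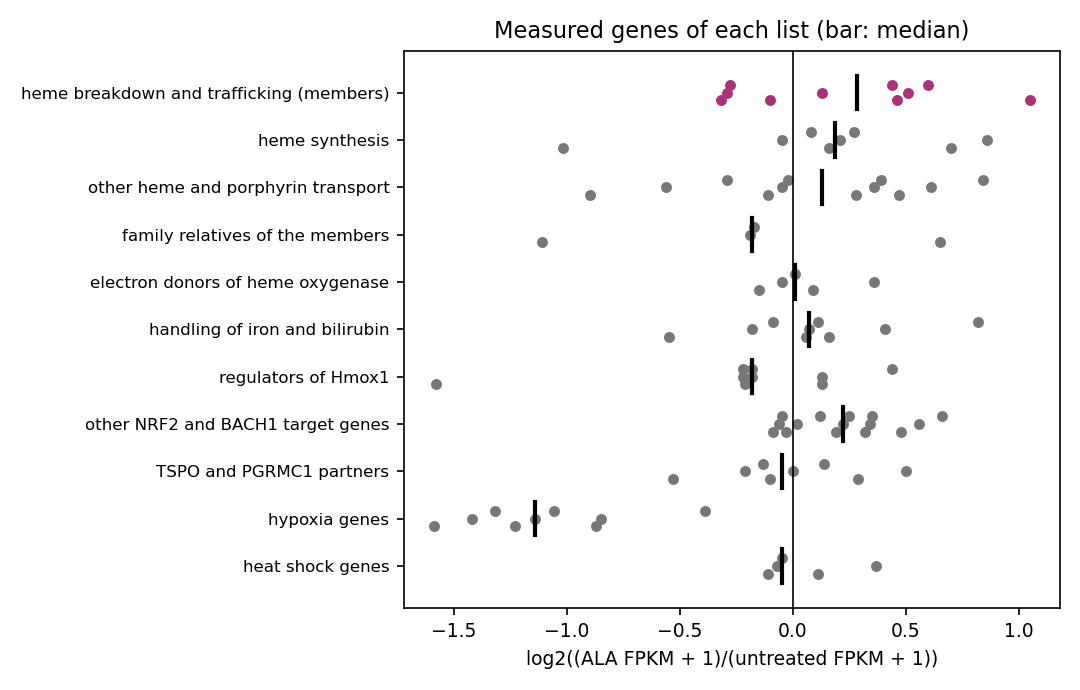
Log2 ratio of every measured gene in the member set (purple) and in each surrounding list (grey), with the median as a black bar. The member median is 0.28, that of other NRF2 and BACH1 target genes 0.22 and that of the regulators of Hmox1 -0.18.

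Apart from the macrophage markers Cd14 and Lyz2, markers of cells known for heme turnover were low. Of the 8 macrophage markers present, 3 were measured, and their summed level over all 8 was 29.9 FPKM untreated and 18 FPKM with ALA. That sum was mostly Cd14, at 13.1 and 4.69 FPKM, and Lyz2, at 15.2 and 9.59 FPKM, which shares 22.3% of its 41-base stretches with other genes. The other markers were low and, apart from Marco, higher with ALA. Aif1 was at 0.949 and 1.42 FPKM, Cd68 at 0.237 and 1.4 FPKM and Ptprc at 0.367 and 0.754 FPKM. Csf1r and Cd163 stayed below 0.05 FPKM in both libraries, and Marco was listed at 0 in both. Of 7 erythroid markers 1 was measured, Epor, with 2.5 and 1.83 FPKM, and of 5 hepatocyte markers none was. The sum of all 7 was 2.5 and 1.85 FPKM. The macrophage markers did not move in 1 direction, and the part of such cells in the values of the members was not tested.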

How the data were processed

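Messenger RNA libraries made with the TruSeq kit were read as single-end 41-bp reads on a Genome Analyzer IIx, per the labels' protocols. The deposited values are FPKM per gene, made by the authors, in the tracking layout of Cufflinks per the file headers. FastQC 0.11.5, TopHat2 2.1.1, Cufflinks 2.2.1 and build mm10 are named in the submitters' processing notes, without roles. The sources used here do not give the annotation, the strand setting, the options or how libraries were scaled. The deposited interval bounds equal each other and carry no error. Log2 ratios with 1 FPKM added, counts and medians were computed in Python 3.11.15 with pandas 2.3.3, and the calculation was run on simulated counts. The simulation used the same depth and lengths as the counting intervals and no variation between cultures. It therefore checks the calculation only. Approximate reads used the GENCODE vM21 transcript length less an assumed 200-bp fragment. Depth came from steps between low values, with 23300000 to 26500000 reads (untreated) and 31600000 to 35400000 (ALA) scoring nearly as well. For 461 low genes, the share of ratios that matched ratios of small whole numbers was computed over a range of relative depths. It was highest at a relative depth of 1.35, at 35.1%, and its median over that range was 14.5%. Shared 41-base stretches count exact matches to annotated transcripts. Of the deposited genes 94.4% had a gene model. The members and lists were chosen with earlier results of these data known. Named were all members, Alas1 and up to 4 genes per list with the log2 ratios furthest from 0. The 3 nearest genes of members at 1.5-fold were also named, with a few other genes named after their values were seen. One gene that the rule covers is not reported here. Srrd, which the rule also names, is not described here. Protein comparisons and a search further upstream of Hmox1 were not done here. Pseudocounts, scalings and filters were varied.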

Additional observations from a re-analysis of the deposited data

How the results depend on the processing

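Each member kept its direction under all alternatives run, in 61 of 61 recomputed values, and 57 stayed within the counting interval of the value reported. The kept directions were fixed by the alternatives chosen. The filters on low values leave the value of a member unchanged, and an added constant cannot turn its sign. The scalings raised log2 ratios by at most 0.08, so they could not turn a higher member. Nor could they turn Blvrb, at -0.10 the lower member nearest 0. Cdip1 was itself higher, at 0.15, so its sum with Hmox2 could not turn Hmox2. The log2 ratio of Hmox1 ran from 1.01 with 5 FPKM added to 1.13 with equal library totals, a scaling that raised log2 ratios by up to 0.08. That of Hmox2 was 0.13 after adding Cdip1. With 5 FPKM added, 1 member was at least 1.5-fold higher in place of 2, by the construction of the larger constant. The member median of 0.28 became 0.44 over members with under 10% shared sequence, which leaves out Hmox2, and 0.13 without Hmox1. Measured genes at 2-fold numbered 163 higher and 220 lower, 302 and 389 with 0.1 FPKM added, and 31 and 42 with 5 added. They numbered 67 and 104 among genes that average 5 FPKM or more, where fewer genes were counted. With equal library totals they numbered 190 higher and 172 lower, so which direction held more genes depended on the scaling. Of 60 list medians 3 turned sign, all near 0: TSPO and PGRMC1 partners became 0.03 with equal totals, and heat shock genes 0.03 with equal totals and 0.03 under that stricter filter. No paired analysis was possible because each group had 1 library. Depth separated the levels of every member between libraries except Blvrb, for counting error only.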

Other observations

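Proteins known to work with TSPO and PGRMC1 had 3 of 8 measured genes higher and a median log2 ratio of -0.05. Vdac2, a channel of the outer mitochondrial membrane, moved from 193 to 134 FPKM, or -0.53 on the log2 scale, close in direction to Tspo at -0.29. Dbi, which encodes an acyl-CoA binding protein and ligand of TSPO, had 214 and 263 FPKM, a log2 ratio of 0.29. The sterol sensors Scap and Insig1 were at 0.50 and -0.21.

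Hmox1 is also known as a target of hypoxia-inducible factors and as a heat shock gene in rodents. All 9 measured genes of the hypoxia list were lower, 6 of them at 2-fold, with a median of -1.14. Bnip3 went from 371 to 138 FPKM, Pdk1 from 64 to 25 FPKM and Hk2 from 22.1 to 8.85 FPKM, while Ankrd37, which overlaps Lrp2bp, was at -1.59. Bnip3 shares 51.7% of its 41-base stretches with other genes, so its level is uncertain. The heat shock list had 2 of 5 measured genes higher and a median of -0.05, with Hsph1 at 0.37, Hsp90aa1 at 0.11, Hspa1b at -0.11 and Dnajb1 at -0.07. The shared stretches made 64.9% of Hspa1b and 49.2% of Hsp90aa1, whose levels are likewise uncertain. Of 5 epithelial markers 2 were measured, and they differed in direction. Krt14, chosen here after its value was seen, had 84.2 and 114 FPKM, and it shares 19.8% of its 41-base stretches with other genes. Cdh1 had 1.23 and 0.944 FPKM. Epcam and Krt18 were listed at 0 in both libraries.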
